A study of Mus musculus with 6 samples.

Results

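Dbp, Tef, Hlf, Nfil3, Ciart, Bhlhe40 and Bhlhe41 encode transcription factors that carry the timing of the circadian clock to other genes or feed back on it. They were taken as the probes whose RefSeq accession is assigned to these symbols, which gave 7 of the 16358 named genes of the array and 11 of its 22951 named probes. All 7 genes were among the 12968 genes tested. They were chosen by gene name with their log2 levels in the 3 genotypes in view, so their values are given as a description and without a test. Tef had 3 probes, Nfil3 and Bhlhe41 had 2 each, and the other members had 1 each.

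The samples were total RNA of C57BL/6 mouse lungs, each hybridised to an Agilent 44K single-colour array. Lungs with the hCD2-T-bet transgene on both alleles (tg/tg), lungs with the transgene on one allele (tg/wt) and lungs without it (WT) were measured on 2 arrays each. T-bet, the product of Tbx21, is the transcription factor that directs T cells to the type 1 helper fate, and hCD2 regulatory elements drive expression in T cells. The study recorded the lung expression changes that accompany pulmonary alveolar proteinosis, a filling of the air spaces with surfactant, in these mice. Neither the animals' ages nor the hour at which lungs were collected is among the labels used here, so genotype cannot be told apart from collection time for genes whose level follows the clock. The labels do not say whether the 2 arrays of a genotype came from separate animals. What the p-values measure is therefore array-to-array spread, possibly of a technical kind. The arrays of tg/tg and WT lungs were on slide 1 and those of tg/wt lungs on slide 2, so slide and genotype cannot be told apart in any comparison with tg/wt lungs.

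Tbx21 followed the order of the genotypes that the labels give. Its level, as log2 of the processed intensity relative to the 75th percentile of the array, was 3.25 and 3.26 in tg/tg lungs, 1.30 and 1.34 in tg/wt lungs, and -0.70 and -0.71 in WT lungs. The arrays had 75th percentiles of 794 to 1204 intensity units, and replicate arrays correlated at 0.996 to 0.997 over the genes tested. Arrays of tg/tg lungs correlated at 0.921 to 0.933 with the other genotypes, against 0.991 between tg/wt and WT lungs. Called genes, those with a Benjamini-Hochberg adjusted p under 0.05 in limma, were 9685 (74.7%) in tg/tg against WT and 3622 (27.9%) in tg/wt against WT lungs. The last count depends on single arrays: it was 1806 without tg/wt array 1, 1464 without tg/wt array 2, 1396 without WT array 1 and 1472 without WT array 2.

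In the mammalian clock, CLOCK and BMAL1 (the product of Arntl) bind E-boxes and switch on genes that include those of their own repressors, the PER and CRY proteins. DBP, TEF and HLF are activators of the PAR bZIP family that bind a sequence called the D-box, and NFIL3 (also E4BP4) is a bZIP repressor that binds the same sequence. The nuclear receptors REV-ERB alpha and beta repress, and the ROR proteins activate, genes with a ROR element, Nfil3 and Arntl among them. BHLHE40 and BHLHE41 (DEC1 and DEC2) are bHLH-Orange repressors that compete for E-boxes, and CIART (CHRONO) represses CLOCK and BMAL1 directly.

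The sequences below are the stretches of the members' promoters that hold an E-box or a ROR element core, shown because the clock proteins named above act through these elements. RefSeq windows on GRCm38.p6 ran from 250 bases before to 50 bases after a transcription start. They were at hand for 6 members in 7 windows, Tef having 2, and Bhlhe40 had no window and was not searched. The E-box CACGTG, the same on both strands, was in 4 of the 7 windows, those of Ciart, Bhlhe41 and both of Tef, against 7.15% of all 32851 windows. By gene this was 3 of 6 members. Among the core clock genes listed further below, it was in 2 of 22 windows, from 2 of 14 genes. The ROR element core TAGGTCA, searched on both strands, was in the Nfil3 window, against 2.61% of all windows. Neither D-box form searched, TTATGTAA or TTACGTAA on both strands, was in a member's window, against 1.06% of all windows. Dbp and Hlf held none of these letters in their windows. In the lines below each stretch is printed on the gene's strand, 5′ to 3′, with the match in capitals and positions counted from the start site as 0.
Ciart, chr3:95882247-95882364, minus strand, 3 E-boxes beginning at -116, -58 and -44 from the start site: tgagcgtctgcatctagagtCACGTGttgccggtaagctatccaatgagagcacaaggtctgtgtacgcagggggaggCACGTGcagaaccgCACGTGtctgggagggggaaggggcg
Tef, chr15:81802526-81802571, plus strand, E-box at -127 of its first window: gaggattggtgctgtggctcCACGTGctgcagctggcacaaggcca
Tef, chr15:81811256-81811301, plus strand, E-box at -138 of its other window: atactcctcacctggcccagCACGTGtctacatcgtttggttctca
Bhlhe41, chr6:145865548-145865593, minus strand, E-box at -153: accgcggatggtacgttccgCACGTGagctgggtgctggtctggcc
Nfil3, chr13:52981040-52981071, minus strand, ROR element core on the opposite strand at -12: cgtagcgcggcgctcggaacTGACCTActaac
Ciart held 3 of the 6 E-boxes found in the members' windows, those at -58 and -44 lying close together. A match describes the letters of the window and does not show that a factor binds there.

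The 3 D-box activators were all lower in tg/tg lungs. Dbp, whose RNA has among the widest daily swings known in mouse tissues, had levels of 3.47 and 3.51 in tg/tg lungs, 6.54 and 6.50 in tg/wt lungs, and 6.53 and 6.50 in WT lungs. Before scaling, these were 8800 and 11449 intensity units in tg/tg lungs, 111783 and 84228 in tg/wt lungs, and 87733 and 87172 in WT lungs. The tg/tg arrays lay far below the rest, while tg/wt and WT arrays overlapped. The difference between tg/tg and WT lungs was -3.02 on the log2 scale (SE 0.0373, n = 2 each), which is 8.13-fold lower. Between tg/wt and WT lungs it was 0.00 (SE 0.0373).

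Hlf, the family member first known from a translocation in leukaemia, had levels of -0.71 and -0.67 in tg/tg lungs, 1.71 and 1.80 in tg/wt lungs, and 1.52 and 1.60 in WT lungs. It was 4.76-fold lower in tg/tg than in WT lungs (log2 difference -2.25, SE 0.0504). The tg/wt arrays were both above the WT arrays, by 0.19 on average (SE 0.0504), so the order of the genotypes was tg/tg, WT, tg/wt.

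Tef, the thyrotroph embryonic factor, had levels of 1.86 and 1.83 in tg/tg lungs, 3.65 and 3.72 in tg/wt lungs, and 3.58 and 3.57 in WT lungs on its brightest probe. The log2 difference between tg/tg and WT lungs was -1.73 (SE 0.0398), 3.32-fold lower. Its other 2 probes were also lower in tg/tg lungs but by less, with differences of -1.28 (SE 0.0702) and -1.25 (SE 0.0756). All 3 Tef probes had tg/tg arrays below every other array. The brightest probe was 0.11 higher in tg/wt than in WT lungs (SE 0.0398), whereas the dimmest probe was 0.04 lower (log2 difference -0.04, SE 0.0756), so its probes gave no common direction there.

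Nfil3, the repressor that binds the same D-box, was higher in tg/tg lungs. Its levels on the brighter probe were 2.28 and 2.26 in tg/tg lungs, -0.77 and -0.86 in tg/wt lungs, and -0.53 and -0.46 in WT lungs. On its other probe they were 1.72 and 1.63 in tg/tg lungs, -1.36 and -1.25 in tg/wt lungs, and -1.03 and -1.04 in WT lungs. Both probes placed tg/tg lungs at the top and tg/wt lungs at the bottom, with no overlap between genotypes. The log2 difference between tg/tg and WT lungs was 2.76 (SE 0.0469, 6.78-fold higher) on the brighter probe and 2.71 (SE 0.0655, 6.54-fold higher) on the other. Between tg/wt and WT lungs the 2 probes gave -0.32 (SE 0.0469) and -0.27 (SE 0.0655).

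Set against each activator on the same array, with the WT mean at 0, the log2 level of Nfil3 minus that of Dbp was 5.82 and 5.75 in tg/tg lungs and -0.30 and -0.35 in tg/wt lungs. For Nfil3 minus Hlf it was 5.04 and 4.99 in tg/tg lungs and -0.43 and -0.60 in tg/wt lungs. For Nfil3 minus Tef it was 4.49 and 4.50 in tg/tg lungs and -0.36 and -0.52 in tg/wt lungs. The D-box repressor RNA was thus shifted upward relative to each of the 3 activator RNAs in tg/tg lungs and slightly downward in tg/wt lungs, on each array. These values only combine the levels given above, on each gene's brightest probe, and are no separate evidence. The other Tef probes fell by less in tg/tg lungs.

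**Figure D1:**
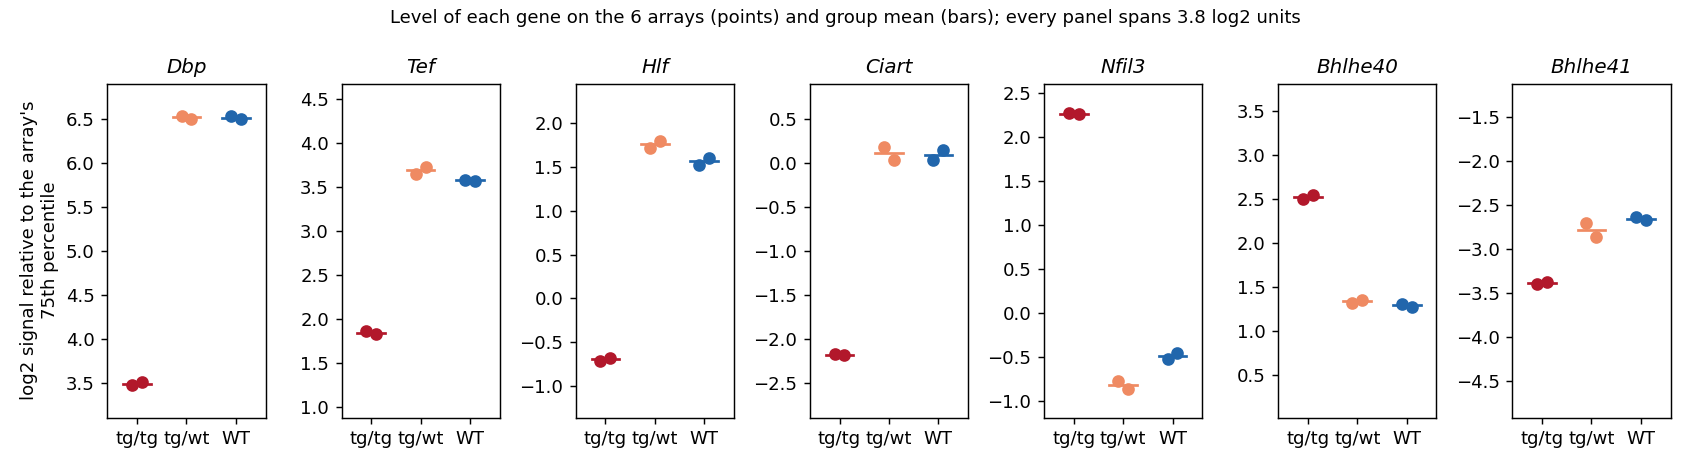
Level of each of the 7 genes on each array, as log2 of the processed intensity relative to the array's 75th percentile, for tg/tg, tg/wt and WT lungs (points are arrays, n = 2 per genotype, and bars are genotype means); all panels span the same number of log2 units. Dbp, Tef, Hlf, Ciart and Bhlhe41 were lowest and Nfil3 and Bhlhe40 highest in tg/tg lungs, while tg/wt and WT lungs lay close together in every panel.

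Among the repressors on the E-box side, Ciart was lower in tg/tg lungs and Bhlhe40 higher. Ciart had levels of -2.18 and -2.18 in tg/tg lungs, 0.19 and 0.04 in tg/wt lungs, and 0.03 and 0.14 in WT lungs. Its tg/wt and WT arrays overlapped. It was 4.81-fold lower in tg/tg than in WT lungs (log2 difference -2.27, SE 0.0679), and its tg/wt to WT difference was 0.03 (SE 0.0679).

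Bhlhe40, which outside the clock is also induced in activated T cells and by hypoxia, had levels of 2.50 and 2.55 in tg/tg lungs, 1.32 and 1.35 in tg/wt lungs, and 1.30 and 1.27 in WT lungs. Against WT lungs this was 2.35-fold higher (log2 difference 1.24, SE 0.037). The tg/wt to WT difference was 0.05 (SE 0.037).

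Bhlhe41, the paralog of Bhlhe40, differed from WT in the other direction. Its levels were -3.40 and -3.38 in tg/tg lungs, -2.71 and -2.86 in tg/wt lungs, and -2.64 and -2.67 in WT lungs. This was 1.66-fold lower in tg/tg than in WT lungs (log2 difference -0.73, SE 0.0596). It was a dim gene, at 75.2 to 96.6 intensity units in tg/tg lungs, 128 to 184 in tg/wt lungs and 151 to 152 in WT lungs, and with another background correction (normexp) the difference was -0.41. Its other probe did not rise well above background on any of the 6 arrays and gives no fold.

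All 7 members had tg/tg and WT arrays that did not overlap, 2 higher (Nfil3, Bhlhe40) and 5 lower (Dbp, Tef, Hlf, Ciart, Bhlhe41). Such separation was seen for 87.9% of all genes tested, 40.2% higher and 47.7% lower, so the count alone says little about the members, whose levels in these genotypes were moreover known when they were chosen. The sizes are given as a description: among the 12968 genes ordered from the most lowered in tg/tg against WT lungs, Dbp was at rank 176, Ciart at 355, Hlf at 363, Tef at 640 and Bhlhe41 at 2258. From the most raised, Nfil3 was at rank 330 and Bhlhe40 at 1171, with Tbx21 at 123. The quartiles of all genes were -0.49 and 0.35 around a median of -0.05 on the log2 scale. Every member lay outside them, as a large part of all genes does by definition, and Bhlhe41 was only at percentile 17.4.

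Between tg/tg and tg/wt lungs, which shares the tg/tg arrays with the comparison above, all 7 members again had arrays that did not overlap, as did 87.5% of all genes (40.1% higher, 47.4% lower). In limma 74.2% of all genes were called in this comparison, 34% higher and 40.2% lower. The log2 differences were -3.03 for Dbp, -2.44 for Hlf, -2.29 for Ciart, -1.85 for Tef, -0.60 for Bhlhe41, 1.19 for Bhlhe40 and 3.09 for Nfil3. Nfil3 was at rank 188 from the most raised and Dbp at rank 125 from the most lowered.

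Between tg/wt and WT lungs, 5 of the 7 members had arrays that did not overlap, against 72.4% of all genes (34.9% higher, 37.5% lower). On the brightest probe of each gene, Tef, Hlf and Bhlhe40 were higher and Nfil3 and Bhlhe41 lower in tg/wt lungs, while Dbp and Ciart overlapped. The Tef probes gave no common direction here, and the Bhlhe40 difference was only 0.05 (SE 0.037). The sizes were small beside that of Tbx21, which was 2.02 higher on the log2 scale in tg/wt than in WT lungs (4.06-fold): the members ranged between -0.32 for Nfil3 and 0.19 for Hlf. For Tbx21 the log2 difference was 3.96 in tg/tg against WT lungs, so its tg/wt level lay midway between the others, while no member's tg/wt level did. Over 9678 genes outside the members called in tg/tg against WT lungs, tg/wt lungs showed a median of 9.16% of the tg/tg difference (quartiles -10.5% and 29.7%). Tbx21 showed 51.1% and the members -11.8% (Nfil3, below the lower quartile) to 17.5% (Bhlhe41). Among the 2996 of these genes with a log2 difference of at least 1, the median was 10.9% (quartiles -0.862% and 25.2%). Nfil3 (-11.8%), Hlf (-8.43%), Tef (-6.63%) and Ciart (-1.16%) lay below that lower quartile. Dbp (-0.118%) and Bhlhe40 (3.78%) lay between those quartiles, and Bhlhe41 had a smaller log2 difference than this set.

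**Figure D2:**
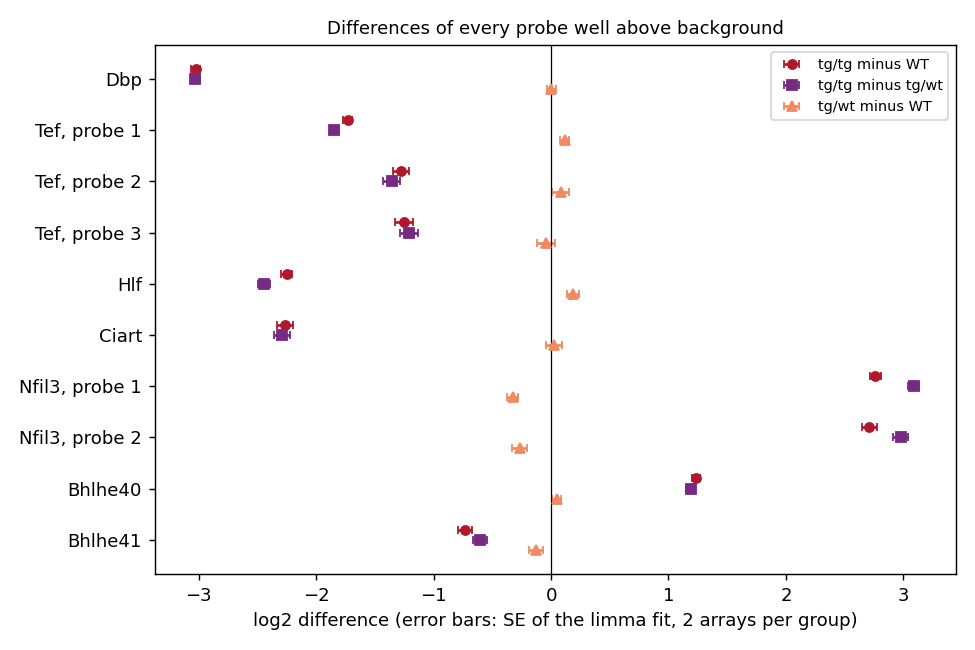
Log2 difference with its standard error for each of the 10 probes of the 7 genes that were above background, in tg/tg minus WT, tg/wt minus WT and tg/tg minus tg/wt lungs (n = 2 arrays per genotype). Probes of the same gene lay on the same side of 0 in both comparisons with tg/tg lungs, at -1.73, -1.28 and -1.25 for Tef and 2.76 and 2.71 for Nfil3 in tg/tg minus WT, and all values in tg/wt minus WT lay near 0.

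Some members had nearly the same pattern over the 6 arrays. Measured as the root mean square (RMS) difference between log2 profiles centred on their own means, Hlf and Ciart were closest at 0.102. Tef and Ciart were 0.245 apart, Tef and Hlf 0.267, Dbp and Hlf 0.332, and Dbp and Ciart 0.357. The 2 raised members, Nfil3 and Bhlhe40, were 0.823 apart, and Dbp and Nfil3, which ran in opposite directions, 2.81. These 6 arrays hold 3 genotypes, so a likeness is mostly that of the tg/tg difference.

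The core clock genes, which hold the loop that drives these outputs, were tested as a list of 19, of which 16 passed the filter and Npas2, Arntl2 and Rorb did not. In tg/tg against WT lungs 11 fell, 3 rose and 2 were not past the threshold, with a median log2 difference of -0.62 against -0.05 over all genes, of which 40.8% fell and 33.8% rose. The increase was led by Arntl, which encodes BMAL1, at -0.49 and -0.57 in tg/tg lungs, -3.32 and -3.19 in tg/wt lungs, and -3.27 and -3.11 in WT lungs. Against WT lungs this was a 6.3-fold increase in tg/tg lungs (log2 difference 2.66, limma adjusted p = 8.18e-06).

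The REV-ERB genes, whose products repress Arntl and Nfil3 in the textbook loop, fell. Nr1d1 was at -0.85 and -0.85 in tg/tg lungs, 0.99 and 0.99 in tg/wt lungs, and 1.04 and 0.97 in WT lungs, 3.62-fold lower in tg/tg than in WT lungs (limma adjusted p = 2.91e-06). Nr1d2 was 2.98-fold lower (limma adjusted p = 5.41e-06). The Per and Cry genes, whose products repress CLOCK and BMAL1, fell in 4 of 5 cases: the log2 differences were -1.22 for Cry2, -1.12 for Per1, -0.84 for Per2 and -0.69 for Per3, against 0.48 for Cry1. Rora (-0.47), which encodes a ROR activator, fell. So did the kinase gene Csnk1e (-0.91) and the ubiquitin ligase gene Btrc (-0.64), whose products act on PER stability.

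The smallest changes past the threshold were Clock at 0.17 (limma adjusted p = 0.0127) and the kinase gene Csnk1d at -0.17 (limma adjusted p = 0.0186). The call for Clock was lost without WT array 1 (adjusted p = 0.073) and without tg/tg array 1 (0.0503). That for Csnk1d was lost without WT array 1 (0.0679), WT array 2 (0.0877) or tg/tg array 1 (0.0639), and its probes disagreed, their mean being 0.32 higher in tg/tg lungs. Per2 missed the threshold when its probes were averaged (adjusted p = 0.0538). Fbxl21 (0.09), which encodes a ubiquitin ligase subunit for CRY, did not pass.

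**Figure D3:**
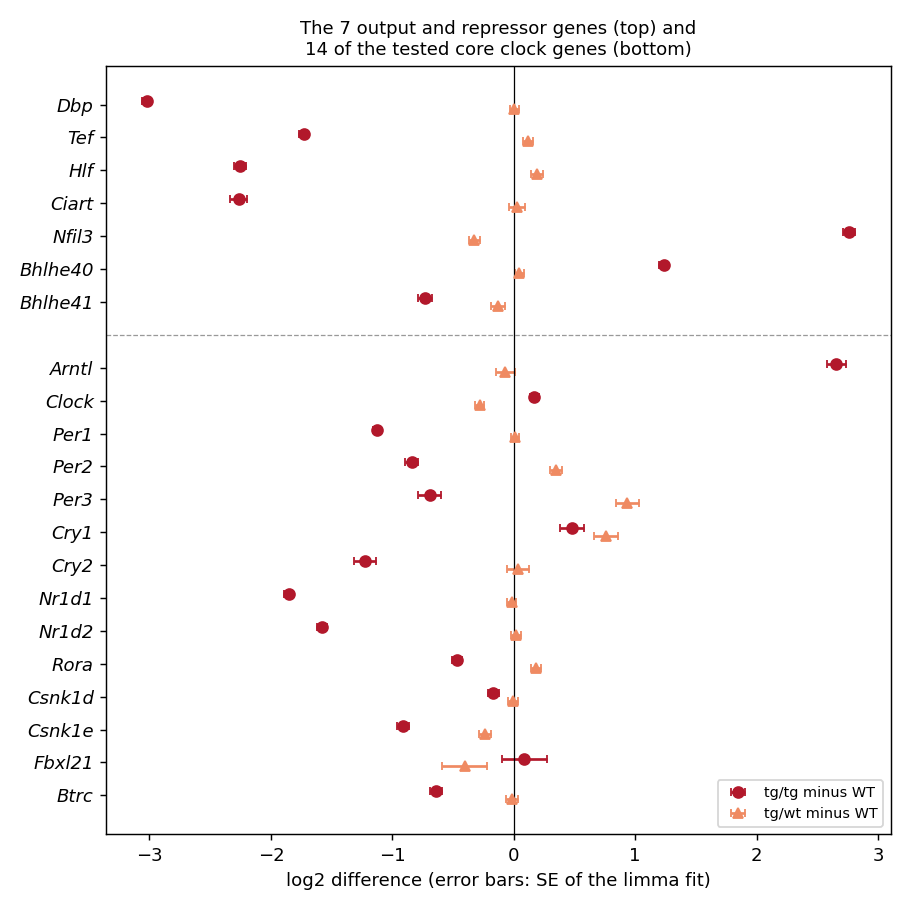
Log2 difference with its standard error in tg/tg minus WT and in tg/wt minus WT lungs for the 7 output and repressor genes (top) and 14 of the core clock genes tested (bottom); n = 2 arrays per genotype. In tg/tg lungs Nfil3 (2.76) and Arntl (2.66) lay far to the right and Dbp (-3.02), Ciart (-2.27), Hlf (-2.25) and Nr1d1 (-1.85) far to the left, and in tg/wt lungs most genes lay near 0.

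In tg/wt against WT lungs, 5 of the 16 core clock genes rose and 2 fell, with a median log2 difference of 0.01, beside 13.4% of all genes that rose and 14.6% that fell. Per3, a PER family gene whose RNA swings widely over the day, was at -3.54 and -3.66 in tg/tg lungs, -2.08 and -1.86 in tg/wt lungs, and -2.97 and -2.84 in WT lungs. Its tg/wt to WT difference was 0.94 (limma adjusted p = 0.00461). Cry1 was 0.76 higher in tg/wt than in WT lungs (limma adjusted p = 0.00787). Per2 (0.35) and Rora (0.18) also rose, and Clock (-0.28) and Csnk1e (-0.23) fell. The count of called core clock genes was 3 without tg/wt array 1, 2 without tg/wt array 2, 3 without WT array 1 and 4 without WT array 2. Per3 and Cry1 passed under each alternative run.

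Genes known as targets of PAR bZIP proteins, mostly from mouse liver and brain, were read as a list of 8 tested. In tg/tg against WT lungs 6 of them fell, 1 rose and 1 did not pass, beside 40.8% of all genes that fell and 33.8% that rose. The median log2 difference of the list was -0.89, against -0.05 over all genes. Cyp2a5, a coumarin hydroxylase regulated by DBP in mouse liver, was at 2.52 and 2.56 in tg/tg lungs, 5.69 and 5.72 in tg/wt lungs, and 6.55 and 6.58 in WT lungs. It was 16.3-fold lower in tg/tg than in WT lungs (limma adjusted p = 6.38e-07) and 1.81-fold lower in tg/wt than in WT lungs (limma adjusted p = 5.14e-04). Its near-identical paralog Cyp2a4 was 17.9-fold lower in tg/tg than in WT lungs (limma adjusted p = 8.99e-07), and signal of these paralogs may be shared between their probes. Unlike Dbp, Tef and Hlf themselves, both Cyp2a genes were lower in tg/wt lungs.

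Cyp2b10, a xenobiotic-metabolising P450, was 3.12-fold lower (limma adjusted p = 7.85e-06) and Por, the reductase that supplies electrons to P450 enzymes, 2.09-fold lower (limma adjusted p = 1.33e-05) in tg/tg than in WT lungs. Cyp2c37 was the gene that rose (log2 difference 0.69, limma adjusted p = 0.0201), with 1 of its 2 WT arrays above background, and its call was lost without WT array 2 (adjusted p = 0.0642), tg/tg array 1 (0.076) or tg/tg array 2 (0.0759). With its probes averaged, Cyp2c37 was higher by 0.22 and did not pass (adjusted p = 0.0838). In tg/wt against WT lungs 5 of the 8 fell and 3 did not pass, beside 14.6% of all genes that fell. Of those 5, Por and Cyp2b10 lost their calls when any of the 4 arrays was left out, with adjusted p up to 0.119 and 0.158, and Alas1 without WT array 1, WT array 2 or tg/wt array 1, with adjusted p up to 0.101.

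Of 6 tested genes that follow the clock in many organs, 4 fell in tg/tg against WT lungs and 2 did not pass. The share called in either direction was near the 74.7% of all genes, of which 40.8% fell and 33.8% rose. The median log2 difference of the list was -1.13, against -0.05 over all genes. Usp2, a deubiquitinase with a strong daily rhythm, was at -2.19 and -2.21 in tg/tg lungs, -0.36 and -0.34 in tg/wt lungs, and -0.20 and -0.16 in WT lungs, 4.05-fold lower in tg/tg than in WT lungs (limma adjusted p = 2.16e-06). Tsc22d3 (GILZ, a glucocorticoid-induced regulator) was 2.9-fold lower (limma adjusted p = 6.07e-06), Klf9 2.62-fold lower (limma adjusted p = 1.32e-04) and the cell-cycle kinase gene Wee1 1.82-fold lower (limma adjusted p = 0.00189). In tg/wt against WT lungs the median of the list was 0.04.

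Relatives of the members were read beside them, and in both lists the share called in either direction was near the 74.7% of all genes. Of 5 C/EBP bZIP genes tested, 1 rose and 3 fell in tg/tg against WT lungs: Cebpb, an inflammatory regulator, by a log2 difference of 0.41 (limma adjusted p = 3.77e-04), and Cebpg (-0.36), Cebpa (-0.24) and Ddit3 (-0.17). With its probes averaged, Cebpa differed by -0.13 and did not pass (adjusted p = 0.145). The differences of the called genes were smaller than those of Dbp, Tef, Hlf and Nfil3. The call for Ddit3 was lost without WT array 1 (adjusted p = 0.129), without tg/tg array 2 (0.113) and without either tg/wt array (0.0564).

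Of 7 HES and HEY genes, which share the bHLH-Orange fold with BHLHE40 and BHLHE41, 5 fell and 2 did not pass. Of all genes 40.8% fell and 33.8% rose. Hes2 was 10.4-fold lower in tg/tg than in WT lungs (limma adjusted p = 5.1e-06), and the Notch targets Hey1 and Heyl were 2.5-fold lower (limma adjusted p = 1.7e-05) and lower by a log2 difference of -0.87 (limma adjusted p = 2.98e-04). Hes1 differed by -0.33 on the log2 scale. The call for Hes6 was lost when its probes were averaged (adjusted p = 0.101). The difference of Bhlhe41 (-0.73) lay within the range of this list, and that of Bhlhe40 (1.24) was opposite in sign to its 5 called genes.

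Markers of other cell types moved with the same comparison. In RNA of whole lung, fewer cells of a type and less RNA per cell cannot be told apart. In tg/tg against WT lungs all 6 leukocyte markers rose (median log2 difference 1.72), as did all 10 T cell markers (3.19, led by Cd6 and Cd5) and all 8 markers of monocytes and interstitial macrophages (3.86, led by Ms4a7 and Fcgr1). Their summed levels, in multiples of the array's 75th percentile, were 81.6 to 82.3 in tg/tg, 34.8 to 35.3 in tg/wt and 25.9 to 26 in WT lungs for leukocytes, 44.4 to 45.2, 8.33 to 8.39 and 3.75 to 3.94 in the same genotypes for T cells, and 196 to 201, 21.5 to 22 and 13.1 to 13.7 for monocytes and interstitial macrophages. The T cell markers Cd28 and Trat1 were not well above background in WT lungs. Of 7 NK cell markers 6 rose, led by Nkg7 (4.20), the other raised ones by only 1.12 to 1.18. Ncr1, named after its value was seen, fell by 0.98 and was well above background on only 1 tg/tg array. Its call was lost under normexp (limma adjusted p = 0.0913).

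Markers of resident lung cells went mostly the other way. In tg/tg against WT lungs 12 of 13 endothelial markers fell (median -1.35, led by Tek and Kdr) and 1 rose (Sox17, 0.62, named after its value was seen), with summed levels of 155 to 156 in tg/tg, 354 to 363 in tg/wt and 383 in WT lungs. Of 10 fibroblast markers 7 fell (median -1.19, led by Inmt and Tcf21) and 3 rose, the collagen genes Col1a1 (0.82), Col3a1 (0.69) and Col1a2 (0.45), named after their values were seen, with sums of 224 in tg/tg, 569 to 604 in tg/wt and 548 to 559 in WT lungs. All 5 airway markers fell (median -1.98, led by Bpifa1), with sums of 375 to 422 in tg/tg, 672 to 811 in tg/wt and 833 to 848 in WT lungs. Of 12 alveolar macrophage markers 9 fell and 3 (Mrc1, Itgax and Atp6v0d2, named after their values were seen) rose (median -1.77), and Fabp1, not well above background in tg/tg lungs, was at least 90.1-fold lower. Alveolar type 2 markers, which define lung tissue, were abundant in every genotype, with summed levels of 972 to 1110 in tg/tg, 819 to 981 in tg/wt and 934 to 995 in WT lungs. They showed a median of -0.01, with 2 of 9 higher (Napsa, Sftpa1), 2 lower (Slc34a2, Lamp3, named after their values were seen) and 5 not past the threshold. Napsa (0.57) kept its call under each alternative run, while Lamp3 lost it without WT array 1, Slc34a2 without either WT array or tg/tg array 2, and Sftpa1 without WT array 2 or either tg/tg array, with adjusted p up to 0.14.

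Heart muscle and fat, tissues that a lung sample can hold, had the list medians largest in size. All 7 heart muscle markers fell in tg/tg against WT lungs (median -4.29, led by Nppa and Myl7), with sums of 11.9 to 12.4 in tg/tg, 105 to 106 in tg/wt and 214 to 217 in WT lungs. All 5 fat markers fell (median -4.40, led by Adipoq and Cfd), with sums of 1.16 to 1.19 in tg/tg, 14 to 14.3 in tg/wt and 23 to 24 in WT lungs. In tg/wt against WT lungs all 7 heart muscle markers and 4 of 5 fat markers also fell. The fat calls for Plin1 and Retn were lost when any of the 4 arrays was left out, with adjusted p up to 0.13 and 0.15. The part of these cell types and tissues in the values of the 7 genes was not tested. Nor was it tested for the core clock genes, the PAR bZIP targets or the other gene lists above.

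**Figure D4:**
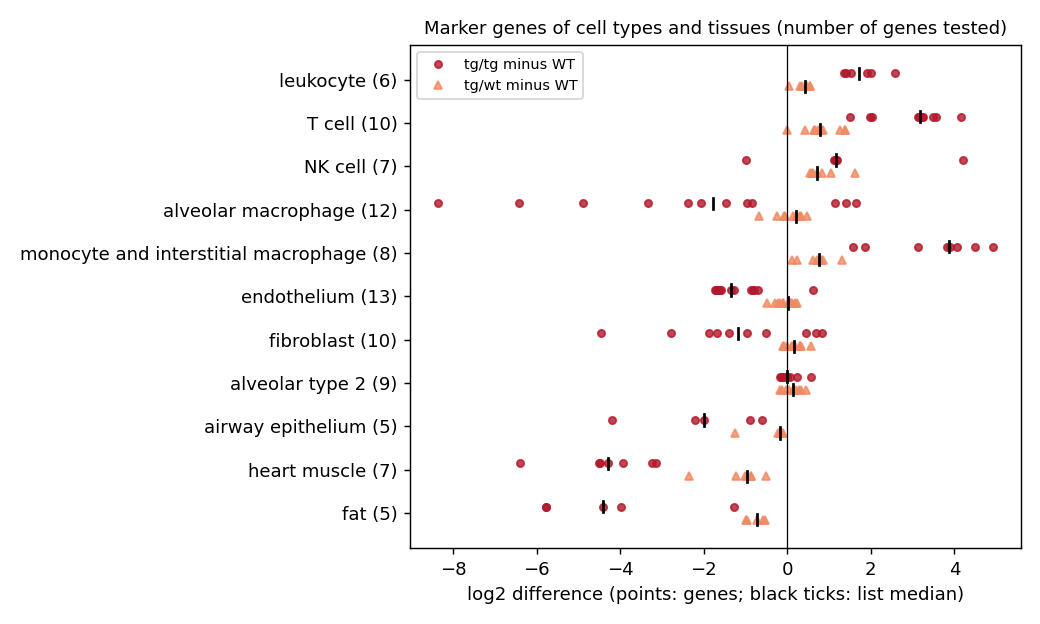
Log2 difference of each marker gene in tg/tg minus WT and in tg/wt minus WT lungs, by list, with the list median as a black tick. In tg/tg minus WT the leukocyte, T cell and monocyte lists lay above 0 (medians 1.72, 3.19 and 3.86) and the endothelial, fibroblast, airway, heart muscle and fat lists had medians between -1.19 and -4.40.

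The genes whose patterns were most like each member's over the 6 arrays were found by the same RMS measure, among the 12968 genes tested apart from the members. For Dbp they were Ltbp4 (0.0427), Fras1 (0.05) and Rgs6 (0.0517). For Tef they were Kitl (0.0107), Kcnk3 (0.0298) and Mtss2 (0.033), and for Hlf they were Adh1 (0.0345), Myh10 (0.0527) and Srpx (0.0578). For Ciart they were Zfp354b (0.0607), Cdh22 (0.0621) and Fgf1 (0.0628). On the raised side, the nearest to Nfil3 were Bst1 (0.0449), Csta2 (0.0723) and Il24 (0.0844), and to Bhlhe40 Mapk13 (0.0148), Crlf2 (0.0181) and Tmco4 (0.027). Bhlhe41 lay nearest to Tbkbp1 (0.0135), Pcdhb17 (0.0264) and Kif3c (0.0292). For each of the 7 members the 3 nearest genes were closer than any other member of the set, and no core clock gene was among them.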

How the data were processed

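Per the labels' protocols, lung RNA was extracted with a column kit and labelled with Cy3. Per the file headers, the deposited intensity values came from Agilent Feature Extraction 9.5.3.1 with a single-colour protocol, whereas the submitters' processing notes name version 9.1. The authors' processed signal is a linear, background-subtracted intensity not scaled between arrays. The deposited series values equal the background-subtracted intensity of all 45018 features on each array (relative tolerance 1e-04), linear, uncentred and unscaled, with medians of 74.4 and 92.2 in tg/tg, 115 and 87.0 in tg/wt, and 88.2 and 86.8 in WT lungs; they served as an alternative.

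Values are log2 of the processed intensity minus the array's 75th percentile. Control and outlier spots were left out, and the 3 saturated spots per array kept. A probe needed a signal well above background on 2 or more of the 6 arrays to enter, and a gene's brightest probe represents it. Of 41174 probes, 22951 were named through RefSeq accessions (GRCm38.p6) and 18223 were not. Where a marker was not above background in a genotype, its fold is a bound: the dim group's mean takes, on each array, the probe's own signal or the lowest signal well above background, whichever is higher. All 6 arrays entered a model of genotype means in limma 3.58.1 (R 4.3.3; 3 residual and 1.77 prior degrees of freedom), checked on simulated data, with Benjamini-Hochberg adjustment over 12968 genes. Array number limits the precision.

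The members, gene lists and tests were chosen with earlier results of these data known. Named are the 7 members, Tbx21, the core clock genes (2 of which count in the list but are not reported here), up to 4 genes of each other pathway list and 2 of each marker list with the largest called change, and the 3 nearest genes of each member. Csf1r, Scgb3a2, Ly6c2, Ear2, Ces3a and Cebpe were not analysed here. Alternatives were normexp on the median signal, quantile normalization, a scaling by the median of those probes that every array detected, the series values, no filter on dim probes, a filter that keeps only probes detected on every array, the mean of a gene's probes, the arrays of slide 1 only, a replicate block and leaving out each array.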

Additional observations from a re-analysis of the deposited data

How the results depend on the processing

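The log2 differences of the 7 genes were recomputed under 15 alternatives for tg/tg against WT lungs and 14 for the other comparisons. In tg/tg against WT lungs each kept its sign: Dbp ranged between -3.09 and -3.00, Tef -1.75 and -1.42, Hlf -2.29 and -2.10, Ciart -2.32 and -1.94, Nfil3 2.63 and 2.79, Bhlhe40 1.21 and 1.26, and Bhlhe41 -0.75 and -0.41. In tg/wt against WT lungs the sign turned for Dbp under 3 and for Ciart under 2 alternatives, all near 0. There Tef kept its sign but ranged between 0.05 and 0.18. The genes called in tg/wt against WT lungs were 2407 without a filter on dim probes, which tests more genes, and 1396 to 3473 when an array was left out; the core clock genes called there were 4 without the filter and 2 to 6 with an array left out. In tg/tg against WT lungs leaving out an array gave 8582 to 9504 genes and 12 to 15 core clock genes, and the arrays of slide 1 alone gave 9504 and 14. With quantile normalization the tg/wt against WT calls split into 1938 higher and 1619 lower, against 1733 and 1889 as reported. Averaging a gene's probes turned the sign of Csnk1d (0.32 against WT and 0.21 against tg/wt), Slc34a2 (0.0693) and Lamp3 (0.0501) in tg/tg lungs and of Fkbp5 (0.0776) in tg/wt against WT lungs, and quantile normalization that of Sftpa1 in tg/tg against tg/wt lungs (-0.0265). Of the genes of the lists and those nearest a member, 11 of 143 called in tg/tg against WT lungs lost the call under at least 1 alternative, and 44 of 87 in tg/wt against WT lungs. Same-numbered arrays correlated, in their deviations from genotype means, at -0.0458 (tg/tg and tg/wt), -0.048 (tg/tg and WT) and 0.129 (tg/wt and WT). The labels do not say whether the numbers pair the arrays, and with 2 arrays per genotype these values cannot settle it. With the replicate block, 9447, 2615 and 9363 genes were called in tg/tg against WT, tg/wt against WT and tg/tg against tg/wt lungs, with 14, 5 and 13 core clock genes. Signal over background limits Bhlhe41, whose second probe was not measured above background.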
